A study of Mus musculus with 17 samples.

Results

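The 38 genes described here encode the transcription factor NRF2 and its regulators, several of its best known targets, and the enzymes of the glutathione and thioredoxin systems. They were chosen by symbol from a list of these pathways, with earlier results of these data known, and all 38 were found among the 56305 gene rows of the deposited count tables. RNA was extracted from bone marrow of mice on the C57BL/6 background that had acute myeloid leukaemia. Every sample of both groups carried Dnmt3aR878H/+;Npm1cA/+, that is, a heterozygous point mutation of a DNA methyltransferase gene and a heterozygous mutant nucleophosmin gene. The Mt1ko samples were leukaemias in which metallothionein 1, a small metal-binding protein, had been targeted with CRISPR-Cas9, and the control samples were leukaemias of the same genotype labelled control. The series' design text describes the intervention as a knock-down; the age and sex of the mice, the guide and the control guide were not stated there. Sequencing covered 9 Mt1ko and 8 control libraries, each labelled a technical replicate, which the authors summed into 3 Mt1ko samples (libraries 4-6, 10-12 and 16-18) and 3 control samples (libraries 1-3, 7-9 and 14-15). Nothing states that the 6 sums came from separate animals, so the tests below measure the spread between these sums, which may be technical in part.

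NRF2, encoded by Nfe2l2, is held at a low level by KEAP1, which marks it for degradation. When cysteines of KEAP1 are modified by oxidants or electrophiles, NRF2 accumulates, pairs with small MAF proteins and binds antioxidant response elements near genes for glutathione synthesis, thioredoxin reduction, quinone reduction and haem breakdown. Glutathione and thioredoxin are the main carriers of reducing power to peroxidases, and both are kept reduced with NADPH. Metallothioneins are rich in cysteine, bind zinc and copper, and can also react with oxidants.

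Each library held between 27124722 and 38645072 counts in all, and each sum between 64247249 and 106407001. Levels are given as CPM, the count relative to the library total, scaled with TMM factors, which adjust for a few genes taking a large share of the counts. Mt1 stood at 172, 67.8 and 80.7 CPM in Mt1ko samples 4-6, 10-12 and 16-18, against 352, 441 and 359 CPM in control samples 1-3, 7-9 and 14-15. Library 6, labelled Mt1ko, held 317 CPM of Mt1, where the other 8 Mt1ko libraries held 49.2 to 95.7 CPM and the control libraries 332 to 448 CPM. Libraries 10 to 12 stood apart in mitochondrial ribosomal RNA, whose share was 21.9% to 30.2% in them. The share was 6.03% to 11.2% in libraries 7 to 9 and 4.58% to 6.31% in the other 11 libraries. Libraries 10 to 12 also held fewer genes with a count. Monocyte and macrophage markers were abundant in every sample, with summed levels of 8493 to 9224 CPM in Mt1ko and 7500 to 10540 CPM in control samples, while the lymphoid lists summed to under 3 CPM. Leaving out library 6, libraries 10 to 12 or 1 of libraries 14 and 15 changed the sign of some fold changes, as given beside them or with the counts for the whole set.

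No gene of the set passed the test between Mt1ko and control samples. Of the 38 genes, 37 passed the expression filter and 0 reached an adjusted p under 0.05 (edgeR quasi-likelihood F test, Benjamini-Hochberg over 16666 genes), where percent called over all genes was 0. At an unadjusted p under 0.05 the count was 0 of 37, against 1.03% of all tested genes, and DESeq2 and limma-voom also called 0 of the 37. Mt1, the targeted gene, did not pass the edgeR test either, at a log2 fold change of -1.85 (95% interval -2.64 to -1.05). A count of 0 therefore does not show that the genes were unchanged. The log2 fold change, Mt1ko over control, was above 0 in 29 of the 37 and below 0 in 8, with a median of 0.06, where 48.3% of all genes were above 0 and their median was -0.01. Without Mt1ko sample 10-12 the median of the set was -0.03, so its sign rested on that sample: 16 of the 37 genes took the other sign, and 17 were above 0. The other sign was taken by 1 gene, Gsr, with library 6 left out, by 8 with library 14 left out and by 8 with library 15 left out. The 95% interval of the fold change lay within 1 log2 unit of 0 in 29 of the 37 genes, as it did in 45.3% of all tested genes and in 94.6% of the 4955 well expressed genes (those whose log2 CPM averaged at least 5).

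**Figure D1:**
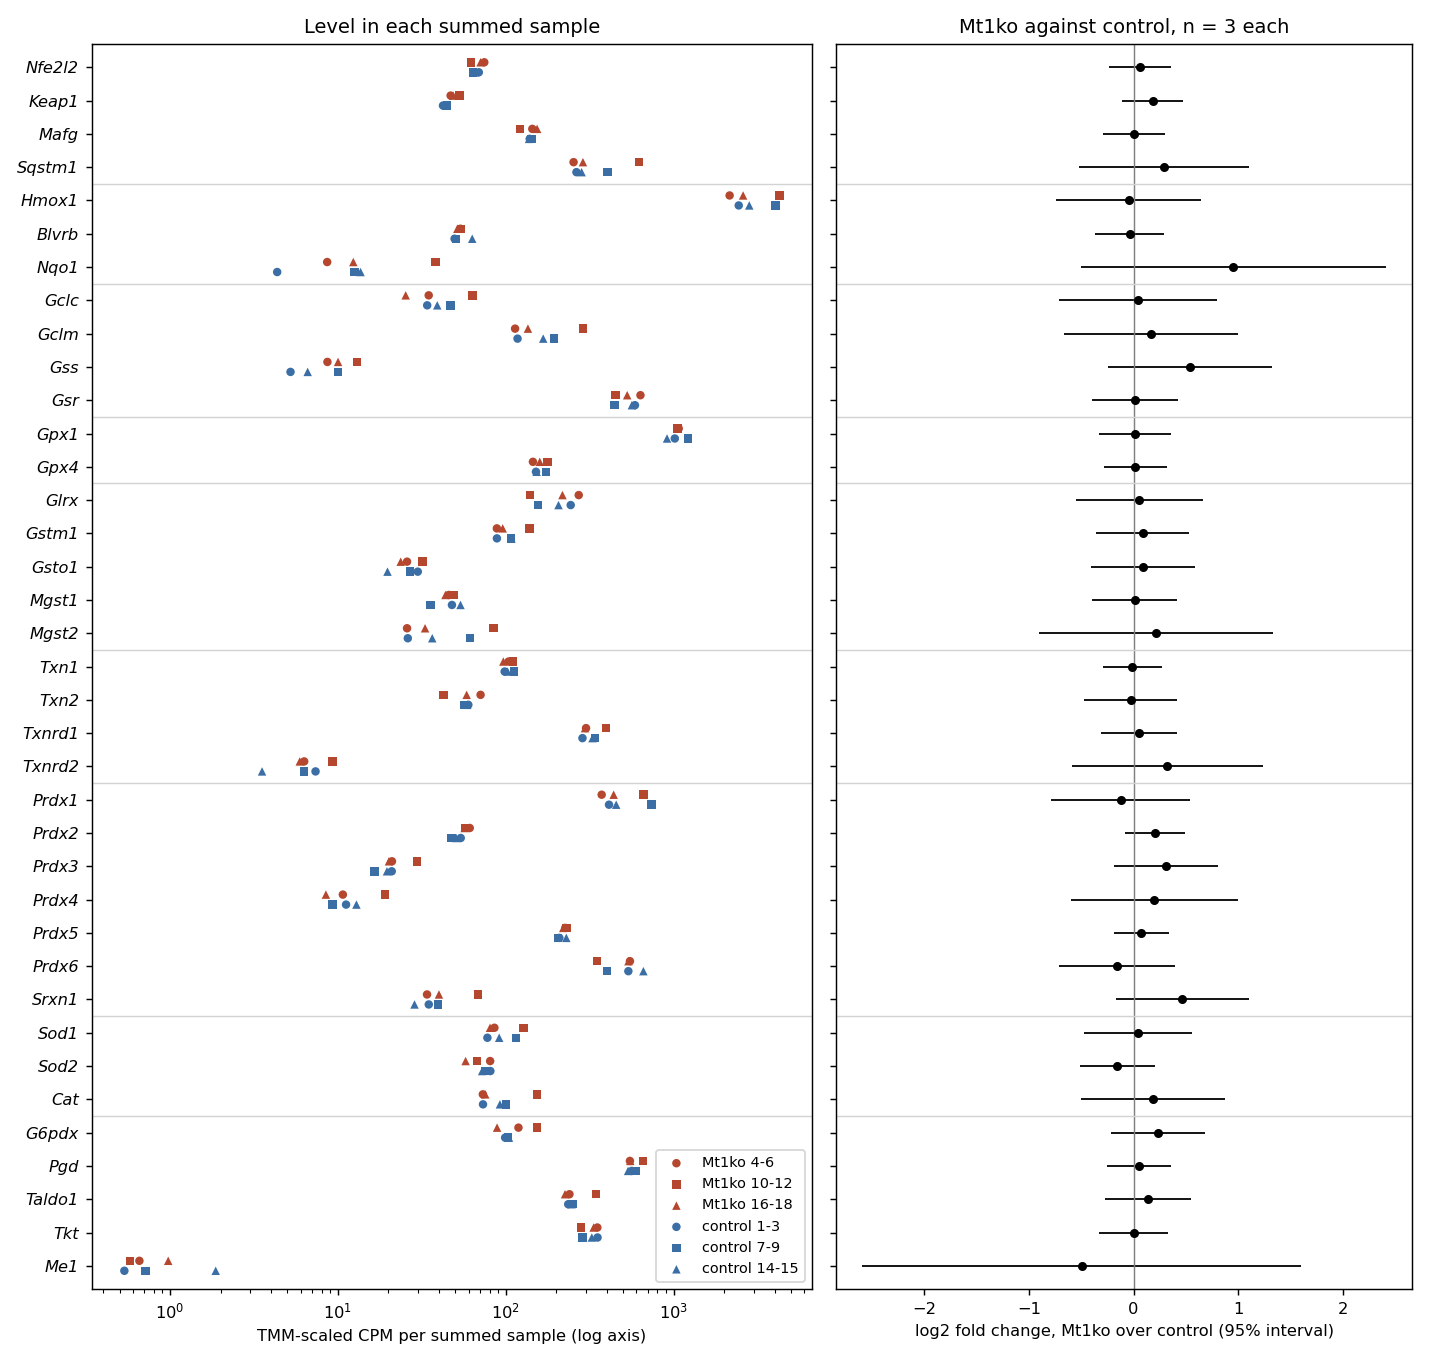
The 37 tested genes in order of role (grey lines part the roles). Left, TMM-scaled CPM on a log axis in each of the 3 Mt1ko samples (red) and the 3 control samples (blue), with squares for samples 10-12 and 7-9. Right, the log2 fold change of Mt1ko over control with its 95% interval from edgeR, n = 3 each. Every interval spans 0, and the red and blue points overlap in all rows but those of Keap1 and Prdx2.

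As the plot of levels and fold changes shows, the set spans a wide range of abundance. Per kilobase of merged exons, the scale on which genes can be set against each other, Hmox1 led with a mean of 1744 CPM per kilobase over the 6 samples, followed by Gpx1 at 731, Gsr at 194, Prdx1 at 169 and Taldo1 at 118. With the longest transcript as the length, Prdx1 stood above Gsr and Prdx6 above Taldo1. At the low end stood Gss at 1.51, Txnrd2 at 1.46 and Me1 at 0.231 CPM per kilobase. Gsta4, an alpha class glutathione transferase, failed the filter: it had 29 counts over all 6 samples, 0 to 0.131 CPM in the Mt1ko samples and 0 to 0.113 CPM in the control samples.

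The choice of genes did not use promoter sequences, but it took in genes known as NRF2 targets. RefSeq promoter windows of GRCm38.p6, 250 bases before to 50 after the start, were on hand for 33 of the 38 genes, and not for Hmox1, Gclc, Gsr, Gsta4 and Prdx6. The core TGACNNNGC, searched on both strands, was found in 11 of these 33 genes (33.3%), namely Nfe2l2, Mafg, Gclm, Mgst1, Txnrd1, Prdx1, Srxn1, Sod1, G6pdx, Pgd and Me1, against 14% of the 27025 genes in the table. The AP-1 motif TGACTCA, which overlaps that core in some promoters, was found in 5 of the 33 (15.2%), against 5.95% of all genes. Because NRF2 targets were listed, a higher share in the set may follow from the choice and is not independent evidence. A match is a run of letters and does not show that a factor binds there. The 4 promoters below are shown because their genes share a sample pattern described further on, with their highest levels in Mt1ko 10-12 and control 7-9, and hold the core before the start. Each is written 5′ to 3′ on the strand of its gene (all plus), as the 250 bases before the start, and the capitals mark the core, which lies on the opposite strand and so reads in reverse complement. They lie at chr3:122245307-122245556 (Gclm), chr4:116685349-116685598 (Prdx1), chr10:82858956-82859205 (Txnrd1) and chr16:90220512-90220761 (Sod1).
Gclm: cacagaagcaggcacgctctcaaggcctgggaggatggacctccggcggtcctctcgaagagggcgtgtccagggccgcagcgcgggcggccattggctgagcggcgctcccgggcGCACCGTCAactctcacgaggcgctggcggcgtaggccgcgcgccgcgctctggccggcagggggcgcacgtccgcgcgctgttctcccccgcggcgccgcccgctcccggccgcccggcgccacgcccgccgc
Prdx1: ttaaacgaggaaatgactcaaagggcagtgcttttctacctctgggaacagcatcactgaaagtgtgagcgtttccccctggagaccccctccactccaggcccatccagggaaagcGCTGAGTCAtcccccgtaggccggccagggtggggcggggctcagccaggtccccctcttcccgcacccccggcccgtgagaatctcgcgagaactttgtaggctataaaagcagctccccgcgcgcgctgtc
Txnrd1: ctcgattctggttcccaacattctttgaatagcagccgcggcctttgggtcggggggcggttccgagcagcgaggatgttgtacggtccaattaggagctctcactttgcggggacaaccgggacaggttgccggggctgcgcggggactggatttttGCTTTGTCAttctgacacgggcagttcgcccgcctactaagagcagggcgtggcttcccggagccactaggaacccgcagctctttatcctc
Sod1: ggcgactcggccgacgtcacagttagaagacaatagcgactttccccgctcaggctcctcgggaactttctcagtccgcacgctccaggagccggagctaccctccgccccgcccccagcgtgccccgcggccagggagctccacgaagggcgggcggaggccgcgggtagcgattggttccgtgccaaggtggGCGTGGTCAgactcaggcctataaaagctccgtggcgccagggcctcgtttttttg
The core starts 134 bases before the transcription start in Gclm, 133 in Prdx1, 92 in Txnrd1 and 56 in Sod1, and in Prdx1 it contains the AP-1 motif as well.

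Among the regulators of NRF2, the RNA of Keap1 was slightly higher in the Mt1ko samples without passing the test. Keap1 (chr9:21229730-21239361, minus strand, GRCm38) stood at 46.9, 53.0 and 48.6 CPM in Mt1ko samples 4-6, 10-12 and 16-18, against 42.3, 44.7 and 44.0 CPM in control samples 1-3, 7-9 and 14-15. All 3 Mt1ko samples lay above all 3 control samples, but the gap was narrow. Mt1ko over control, the log2 fold change came to 0.18 ± 0.13 (SE, n = 3 each; 95% interval -0.11 to 0.48; adjusted p = 1.0, edgeR), and it stayed above 0 in all 20 alternatives, between 0.13 and 0.22. The groups overlapped with upper quartile scaling and with CPM relative to all counts, and in single libraries Keap1 ran from 41.4 to 62.8 CPM in Mt1ko and from 36.9 to 51.3 CPM in control. Of all tested genes, 2.74% had 3 Mt1ko samples above 3 control samples and 4.36% had them below, while 2 of the 37 genes of the set, Keap1 and Prdx2, had them above and 0 below. Reads from Keap1 and from Gm16754 on the other strand cannot be told apart if the counting ignored strand, and the strand setting is not known from the sources used.

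Nfe2l2 RNA was close between the groups. It averaged 69.1 ± 6.29 CPM in Mt1ko and 66.2 ± 2.64 CPM in control samples (SD, n = 3 each), a log2 fold change of 0.06 with a 95% interval of -0.23 to 0.36. Mafg, a small MAF partner of NRF2, averaged 139.7 ± 16.5 CPM in Mt1ko and 139.5 ± 2.24 CPM in control samples. Because NRF2 is controlled mainly through the stability of its protein, these RNA levels do not measure its activity. Sqstm1 encodes p62, an autophagy receptor that binds KEAP1 and is itself a target of NRF2. It stood at 253, 621 and 288 CPM in Mt1ko samples 4-6, 10-12 and 16-18, against 264, 404 and 283 CPM in control samples 1-3, 7-9 and 14-15. Sample 10-12 was high among the Mt1ko samples and 7-9 was high among the controls, and the other 4 samples lay close together. The log2 fold change was 0.29 ± 0.35 (SE; adjusted p = 1.0, edgeR), and without sample 10-12 it was -0.22.

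None of the 3 genes of haem breakdown and quinone reduction passed the test. Hmox1 (chr8:75093621-75100589, plus strand), which encodes the inducible haem oxygenase, stood at 2155, 4266 and 2593 CPM in Mt1ko samples 4-6, 10-12 and 16-18, against 2442, 4040 and 2822 CPM in control samples 1-3, 7-9 and 14-15. In each group 1 sample was well above the other two, and the groups covered nearly the same range. At -0.05 ± 0.30, its log2 fold change (SE; 95% interval -0.74 to 0.65; adjusted p = 1.0, edgeR) took the other sign, at 0.14, when library 15 was left out and, at 0.20, without control sample 7-9. Blvrb, which encodes biliverdin reductase B, averaged 53.1 ± 1.41 CPM in Mt1ko and 54.4 ± 7.54 CPM in control samples.

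Nqo1, the quinone reductase that is often used as a readout of NRF2, had the largest positive fold change of the set and one of the widest spreads. It stood at 8.63, 38.2 and 12.4 CPM in Mt1ko samples 4-6, 10-12 and 16-18, against 4.35, 12.5 and 13.6 CPM in control samples 1-3, 7-9 and 14-15. Mt1ko sample 10-12 alone lay above the controls. The 3 libraries of that sample differed widely, with 0 counts in library 10, 2253 in library 11 and 784 in library 12. At 0.96 ± 0.63, its log2 fold change (SE; 95% interval -0.51 to 2.42; adjusted p = 1.0, edgeR) became -0.06 with libraries 6 and 10 to 12 left out.

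The genes of glutathione synthesis and reduction all had fold changes above 0, and none passed the test. Gclc and Gclm encode the catalytic and modifier subunits of glutamate-cysteine ligase, the rate-limiting step. Gclc averaged 41.2 ± 19.8 CPM in Mt1ko and 40.0 ± 6.45 CPM in control samples (SD, n = 3 each). Gclm (chr3:122245557-122270732, plus strand) stood at 114, 289 and 135.5 CPM in Mt1ko samples 4-6, 10-12 and 16-18, against 118, 194 and 167 CPM in control samples 1-3, 7-9 and 14-15. Sample 10-12 was the highest of the 6 and control 7-9 came next, so the groups overlapped. With libraries 6 and 10 to 12 left out, the log2 fold changes were -0.42 for Gclc and -0.43 for Gclm, against 0.04 and 0.17 with all libraries. That of Gclm was 0.41 with library 15 left out and -0.04 with library 14 left out, and that of Gclc was 0.29 without sample 16-18.

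Gss, glutathione synthetase, stood at 8.66, 13.0 and 10.0 CPM in Mt1ko samples 4-6, 10-12 and 16-18, against 5.22, 10.0 and 6.60 CPM in control samples 1-3, 7-9 and 14-15. The Mt1ko samples were higher as a group, but control sample 7-9 reached the level of Mt1ko 16-18. At 0.54 ± 0.34 its log2 fold change (SE; 95% interval -0.25 to 1.32; adjusted p = 1.0, edgeR) was above 0 in all 20 alternatives. Gsr, the reductase that returns oxidized glutathione to its reduced form with NADPH, stood at 634, 449.5 and 529 CPM in Mt1ko samples 4-6, 10-12 and 16-18, against 588, 445 and 564 CPM in control samples 1-3, 7-9 and 14-15. Here samples 10-12 and 7-9 were the lowest, opposite to Gclm, and the log2 fold change was 0.01 with a 95% interval of -0.40 to 0.42.

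The glutathione peroxidases had the smallest fold changes of any role. Gpx1, the abundant peroxidase that removes hydrogen peroxide, stood at 1072, 1052 and 1049 CPM in Mt1ko samples 4-6, 10-12 and 16-18, against 1016, 1220 and 913 CPM in control samples 1-3, 7-9 and 14-15. The 3 Mt1ko samples lay inside the range of the controls. The estimated log2 fold change, 0.01 ± 0.15 (SE; 95% interval -0.33 to 0.35; adjusted p = 1.0, edgeR), was near 0. Gpx4, which reduces lipid hydroperoxides and protects from ferroptosis, stood at 145, 178 and 159 CPM in Mt1ko samples 4-6, 10-12 and 16-18, against 151, 173 and 153 CPM in control samples 1-3, 7-9 and 14-15. Its log2 fold change was 0.02, with a 95% interval of -0.29 to 0.32, and 34.7% of its 50-base words also occur in other annotated genes, foremost the processed copy Gpx4-ps2, so its level is uncertain.

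Of the glutaredoxin and the glutathione transferases, enzymes that use glutathione, 5 of 6 were tested and all 5 had fold changes above 0 without passing. Gstm1, a mu class transferase, stood at 88.5, 138.5 and 95.9 CPM in Mt1ko samples 4-6, 10-12 and 16-18, against 88.6, 107 and 108 CPM in control samples 1-3, 7-9 and 14-15. It shares 18.9% of its 50-base words with Gstm2-ps1, Gstm3 and Gm8834, so reads may be split among them. Mgst2, a microsomal transferase, stood at 25.8, 84.5 and 33.1 CPM in Mt1ko samples 4-6, 10-12 and 16-18, against 26.1, 61.1 and 36.5 CPM in control samples 1-3, 7-9 and 14-15. The high samples were again 10-12 and 7-9, more than 3-fold over the lowest sample for 10-12. Its log2 fold change of 0.21 ± 0.48 (SE; adjusted p = 1.0, edgeR) was -0.48 without sample 10-12 and 0.62 without control 7-9. Glrx, the cytosolic glutaredoxin, had the opposite pattern, at 272, 139.7 and 218 CPM in Mt1ko samples 4-6, 10-12 and 16-18, against 244, 155 and 206 CPM in control samples 1-3, 7-9 and 14-15. Mgst1 and Gsto1 had log2 fold changes of 0.01 and 0.09. Without sample 10-12, Gstm1, Gsto1, Mgst1 and Mgst2 were below 0 and Glrx alone of the 5 was above it.

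The thioredoxins had fold changes close to 0. Txn1, the cytosolic thioredoxin, stood at 104, 110.3 and 96.7 CPM in Mt1ko samples 4-6, 10-12 and 16-18, against 98.5, 112 and 102.5 CPM in control samples 1-3, 7-9 and 14-15. The 6 values covered a 1.16-fold range, and the log2 fold change came to -0.01 ± 0.12 (SE; 95% interval -0.29 to 0.27; adjusted p = 1.0, edgeR). Single libraries of sample 10-12 differed more, at 98.5, 66.3 and 179 CPM of Txn1 in libraries 10, 11 and 12. Library 11 was the lowest and library 12 the highest of all 17 libraries for this gene. Txnrd1, the cytosolic selenoprotein that reduces thioredoxin, averaged 331 ± 55.8 CPM in Mt1ko and 318 ± 28.3 CPM in control samples, and the mitochondrial thioredoxin Txn2 averaged 57.3 ± 14.1 CPM in Mt1ko and 58.4 ± 1.75 CPM in control samples (SD, n = 3 each). Txnrd2, the mitochondrial reductase, was scarce, at 6.29, 9.28 and 5.92 CPM in Mt1ko samples 4-6, 10-12 and 16-18, against 7.36, 6.27 and 3.53 CPM in control samples 1-3, 7-9 and 14-15. Its groups overlapped, with a log2 fold change of 0.32 ± 0.39 (SE; adjusted p = 1.0, edgeR) that was 0.10 without sample 10-12. Without that sample Txnrd1 had -0.09, against 0.06 with it, and Txn2 had 0.15, against -0.03. The tables list 2 identifiers for Txnrd2 with identical counts in every library, and 1 was used.

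Most peroxiredoxins reduce peroxides with electrons from thioredoxin. Of the 7 genes of this role, sulfiredoxin included, 5 had fold changes above 0. Prdx2 (chr8:84969587-84974834, plus strand) stood at 61.0, 57.4 and 56.9 CPM in Mt1ko samples 4-6, 10-12 and 16-18, against 53.9, 47.4 and 50.6 CPM in control samples 1-3, 7-9 and 14-15. The groups did not overlap, by a margin of a few CPM, and the log2 fold change came to 0.21 ± 0.12 (SE; 95% interval -0.08 to 0.49; adjusted p = 1.0, edgeR). It was above 0 in all 20 alternatives, between 0.16 and 0.27, but the groups overlapped with CPM relative to all counts. Single libraries ran from 28.2 to 73.4 CPM in Mt1ko and from 42.3 to 68.4 CPM in control, so the libraries of the groups overlapped. Exons of Junb and Rnaseh2a overlap those of Prdx2 on the other strand.

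Prdx1, a cytosolic peroxiredoxin and NRF2 target, stood at 373, 662 and 439 CPM in Mt1ko samples 4-6, 10-12 and 16-18, against 412, 737.5 and 455 CPM in control samples 1-3, 7-9 and 14-15. As with Hmox1, samples 10-12 and 7-9 were the high ones, and the log2 fold change was -0.12 ± 0.29 (SE; adjusted p = 1.0, edgeR). Srxn1 encodes sulfiredoxin, which repairs overoxidized peroxiredoxins and is an NRF2 target. It stood at 34.0, 68.5 and 40.0 CPM in Mt1ko samples 4-6, 10-12 and 16-18, against 34.8, 39.6 and 28.6 CPM in control samples 1-3, 7-9 and 14-15. Sample 10-12 was the highest and the other 5 samples overlapped. Its log2 fold change came to 0.47 ± 0.28 (SE; 95% interval -0.17 to 1.11; adjusted p = 1.0, edgeR), and with libraries 6 and 10 to 12 left out it was 0.04. Prdx3, Prdx4, Prdx5 and Prdx6 had log2 fold changes of 0.31, 0.20, 0.08 and -0.16. Without sample 10-12 those of Prdx3, Prdx4 and Prdx6 were 0.12, -0.21 and 0.03, and with libraries 6 and 10 to 12 left out that of Prdx3 was 0.06.

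The superoxide dismutases and catalase did not pass the test. Cat, the haem enzyme that splits hydrogen peroxide, stood at 73.0, 153 and 75.4 CPM in Mt1ko samples 4-6, 10-12 and 16-18, against 73.2, 100.2 and 92.3 CPM in control samples 1-3, 7-9 and 14-15. The log2 fold change of 0.18 ± 0.30 (SE; adjusted p = 1.0, edgeR) was -0.25 without sample 10-12. Sod1, the copper and zinc dismutase, averaged 97.8 ± 25.6 CPM in Mt1ko and 94.8 ± 19.0 CPM in control samples, and Sod2, the mitochondrial manganese enzyme, averaged 68.5 ± 11.6 CPM in Mt1ko and 76.2 ± 4.38 CPM in control samples (SD, n = 3 each). Sod1 had a log2 fold change of 0.05, and -0.20 with libraries 6 and 10 to 12 left out. Sod2 had a log2 fold change of -0.15, below 0 in all 20 alternatives and in none past the threshold. Its level is uncertain because 21.0% of its 50-base words occur in other genes.

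Of the genes that supply NADPH or feed the pentose phosphate pathway, Taldo1, the transaldolase, stood at 239.5, 344 and 225 CPM in Mt1ko samples 4-6, 10-12 and 16-18, against 235.5, 251 and 246 CPM in control samples 1-3, 7-9 and 14-15. The controls lay close together and sample 10-12 stood above them, with a log2 fold change of 0.14 ± 0.18 (SE; adjusted p = 1.0, edgeR). G6pdx and Pgd, the NADPH-making steps of the pathway, had log2 fold changes of 0.23 and 0.06, and Tkt, transketolase, had 0.00. Without sample 10-12 those of G6pdx, Pgd and Taldo1 were 0.02, -0.03 and -0.07. Me1, the cytosolic malic enzyme, was close to the detection limit, at 0.657, 0.578 and 0.975 CPM in Mt1ko samples 4-6, 10-12 and 16-18, against 0.534, 0.715 and 1.87 CPM in control samples 1-3, 7-9 and 14-15. Control 14-15 was the highest, 118 of its Me1 counts came from library 15 and 8 from library 14, and the log2 fold change was -0.49 ± 0.90 (SE; adjusted p = 1.0, edgeR). With library 15 left out it was 0.57.

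No other gene of these pathways passed either. Of 101 other redox genes, listed by role, 94 were tested, 0 passed, and the log2 fold change was above 0 in 55 and below 0 in 39, with a median of 0.03. The 3 Mt1ko samples lay apart from the 3 controls in 3 of these genes, upward in Ggct and Rac2 and downward in Me3, a mitochondrial malic enzyme, where percent called over all genes was 7.1. Rac2, a GTPase of the phagocyte NADPH oxidase, stood at 136, 127.5 and 126 CPM in Mt1ko samples 4-6, 10-12 and 16-18, against 113.5, 88.5 and 112 CPM in control samples 1-3, 7-9 and 14-15. Its log2 fold change came to 0.31 ± 0.14 (SE; 95% interval -0.00 to 0.63; adjusted p = 1.0, edgeR). Ggct, a gamma-glutamylcyclotransferase of glutathione turnover, averaged 10.6 ± 0.628 CPM in Mt1ko and 8.10 ± 0.576 CPM in control samples (SD, n = 3 each), a log2 fold change of 0.39 that did not pass. In single libraries the groups overlapped for both genes. Ggct ran from 1.95 to 21.3 CPM in Mt1ko and from 2.97 to 11.7 CPM in control libraries. Rac2 ran from 48.1 to 169 CPM in Mt1ko and from 84.4 to 137 CPM in control libraries.

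The other genes named by the same rule were spread in both directions. Nfe2, a relative of NRF2 known from blood cells, had a log2 fold change of 0.52 ± 0.56, and Fbxw11, part of a ubiquitin ligase that can act on NRF2, had -0.18 ± 0.22 (SE). Cbr1 (carbonyl reductase) and Aldh2 (mitochondrial aldehyde dehydrogenase) had 0.94 ± 0.82 and 0.40 ± 0.23. Cbr1 was highest in sample 10-12, at 26.7 CPM where the other 5 samples held 3.15 to 8.30 CPM. Ggt5, which cleaves gamma-glutamyl bonds, had -0.43 ± 0.81, the thioredoxin family members Nxn and Txnl1 had -0.23 ± 0.37 and -0.20 ± 0.19, and the pentose phosphate isomerase Rpia had 0.38 ± 0.22. Mthfd2, a mitochondrial folate enzyme, ran from 8.98 to 73.6 CPM in Mt1ko and from 23.1 to 92.2 CPM in control samples, with a log2 fold change of -0.37 ± 0.72, and Cybb, the catalytic subunit of the phagocyte oxidase, had 0.24 ± 0.29. None of these passed the test.

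The larger differences in the set ran across the groups, between samples. Mt1ko 10-12 and control 7-9 were the highest pair of the 6 samples in 13 of the 37 genes (35.1%), against 15.5% of all tested genes and 17.0% of the other redox genes. The 13 were Sqstm1, Hmox1, Gclc, Gclm, Gpx4, Mgst2, Txn1, Txnrd1, Prdx1, Sod1, Cat, Pgd and Taldo1. The same samples were the lowest pair in 6 genes (16.2%), Nfe2l2, Gsr, Glrx, Txn2, Prdx6 and Tkt, against 20.1% of all genes and 23.4% of the other redox genes. Among well expressed genes the pair was highest in 13 of 30 genes of the set (43.3%), against 14.4% of all such genes, and lowest in 6 of the 30, against 34.9% of all such genes. The count of 13 was 11 with CPM relative to all counts, 14 with RLE scaling and with TMM without mitochondrial genes, and 17 with upper quartile scaling. Under these scalings, in that order, the pair was highest in 11.45%, 16.24%, 15.74% and 18.7% of all tested genes. Of the 13, 11 have a promoter in the RefSeq table and 5 of these hold the core shown above, as do 6 of the other 22 genes in the table. The heat map by sample shows this pattern, with the summed level of the 38 genes at 8458, 11460 and 8734 CPM in Mt1ko samples 4-6, 10-12 and 16-18, against 8571, 10730 and 9115 CPM in control samples 1-3, 7-9 and 14-15.

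**Figure D2:**
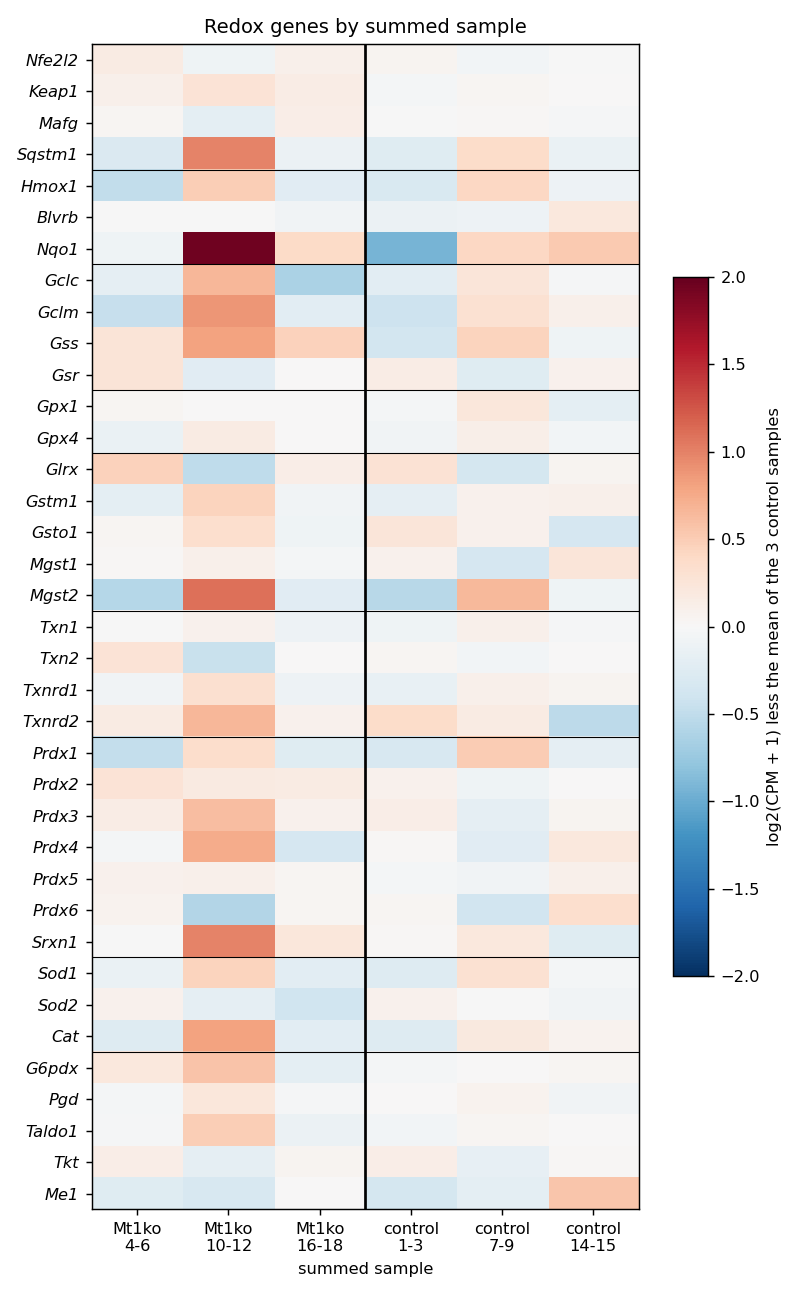
Each tile is log2(CPM + 1) of a gene in a summed sample less the mean of the 3 control samples, with Mt1ko samples on the left and control samples on the right of the black line. Red is above and blue below the control mean, and thin lines part the roles. Mt1ko 10-12 and control 7-9 hold the highest values in 13 genes, while the columns 4-6 and 1-3 are mostly pale or blue in those rows.

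Mitochondrial ribosomal RNA and the sums of some marker lists of other cell types moved with this pattern by sample, while other sums did not. The share of mitochondrial ribosomal RNA was 5.23%, 26.0% and 5.36% in Mt1ko samples 4-6, 10-12 and 16-18, against 4.93%, 8.43% and 5.97% in control samples 1-3, 7-9 and 14-15, so samples 10-12 and 7-9 were the highest pair here too. The 16 neutrophil markers summed to 2352, 283 and 1831 CPM in Mt1ko samples 4-6, 10-12 and 16-18, against 2008, 299 and 2185 CPM in control samples 1-3, 7-9 and 14-15, so samples 10-12 and 7-9 were the lowest, with Camp and Retnlg at 0 in every sample. Most of that difference was Chil3, at 1903, 62.9 and 1468 CPM in Mt1ko samples 4-6, 10-12 and 16-18, against 1624, 49.2 and 1711 CPM in control samples 1-3, 7-9 and 14-15. The other 15 markers summed to 449, 220 and 363 CPM in Mt1ko samples 4-6, 10-12 and 16-18, against 385, 250 and 475 CPM in control samples 1-3, 7-9 and 14-15, and several of them, Mmp8 and Mpo included, did not share the pattern. The 12 mast cell and basophil markers summed to 413, 5301 and 167 CPM in Mt1ko samples 4-6, 10-12 and 16-18, against 239, 831 and 676 CPM in control samples 1-3, 7-9 and 14-15, with Prss34 at 0 in every sample. Within sample 7-9 this list held 32.0, 688 and 2104 CPM in libraries 7, 8 and 9. Over these libraries Hmox1 held 4035, 4236 and 3843 CPM, Gclm 147.5, 185.8 and 269.4 CPM and Gpx4 183.1, 178.6 and 154.1 CPM. Among the redox genes highest in samples 10-12 and 7-9, Gclc, Gclm, Taldo1 and Txnrd1 rose at each step. Gpx4 fell at each step, and the others of that pattern did neither. Summed megakaryocyte and platelet markers were highest in Mt1ko 10-12, at 319 CPM, and lowest in control 7-9, at 106.5 CPM. Members of this list were split. Mt1ko 10-12 and control 7-9 were the lowest pair for Pf4 (31.5 and 47.1 CPM) and Ppbp (0.0 and 3.59 CPM). They were the highest pair for Itga2b (184 and 41.1 CPM). Summed monocyte and macrophage markers were highest in control 7-9, at 10540 CPM, but higher in Mt1ko 4-6 (9224 CPM) than in 10-12 (8666 CPM). Single markers of this list went different ways. Mt1ko 10-12 and control 7-9 were the highest pair for Lyz2 (4585 and 5640 CPM), Mpeg1 (624 and 605 CPM) and Cx3cr1 (24.3 and 29.2 CPM). They were the lowest pair for Mrc1 (19.9 and 12.2 CPM) and Ly6c2 (224 and 246 CPM). Csf1r was lowest in Mt1ko 10-12 (245 CPM) and highest in control 7-9 (440 CPM). Erythroid markers summed to 110.6 CPM in Mt1ko 10-12 and 140.6 CPM in control 7-9, where the other samples held 50.2 to 78.5 CPM. Most of this was Tfrc, at 90.4 and 91.7 CPM in those 2 samples. Stroma and endothelium markers summed to 91.2 CPM in Mt1ko 10-12 and 26.4 CPM in control 7-9, against 15.1 to 23.9 CPM in the others. Most of this was Pecam1, at 88.9 and 20.2 CPM. In bulk RNA, fewer cells of a type and less RNA per cell cannot be told apart. The part of any marker list or of RNA quality in the redox pattern was not tested.

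**Figure D3:**
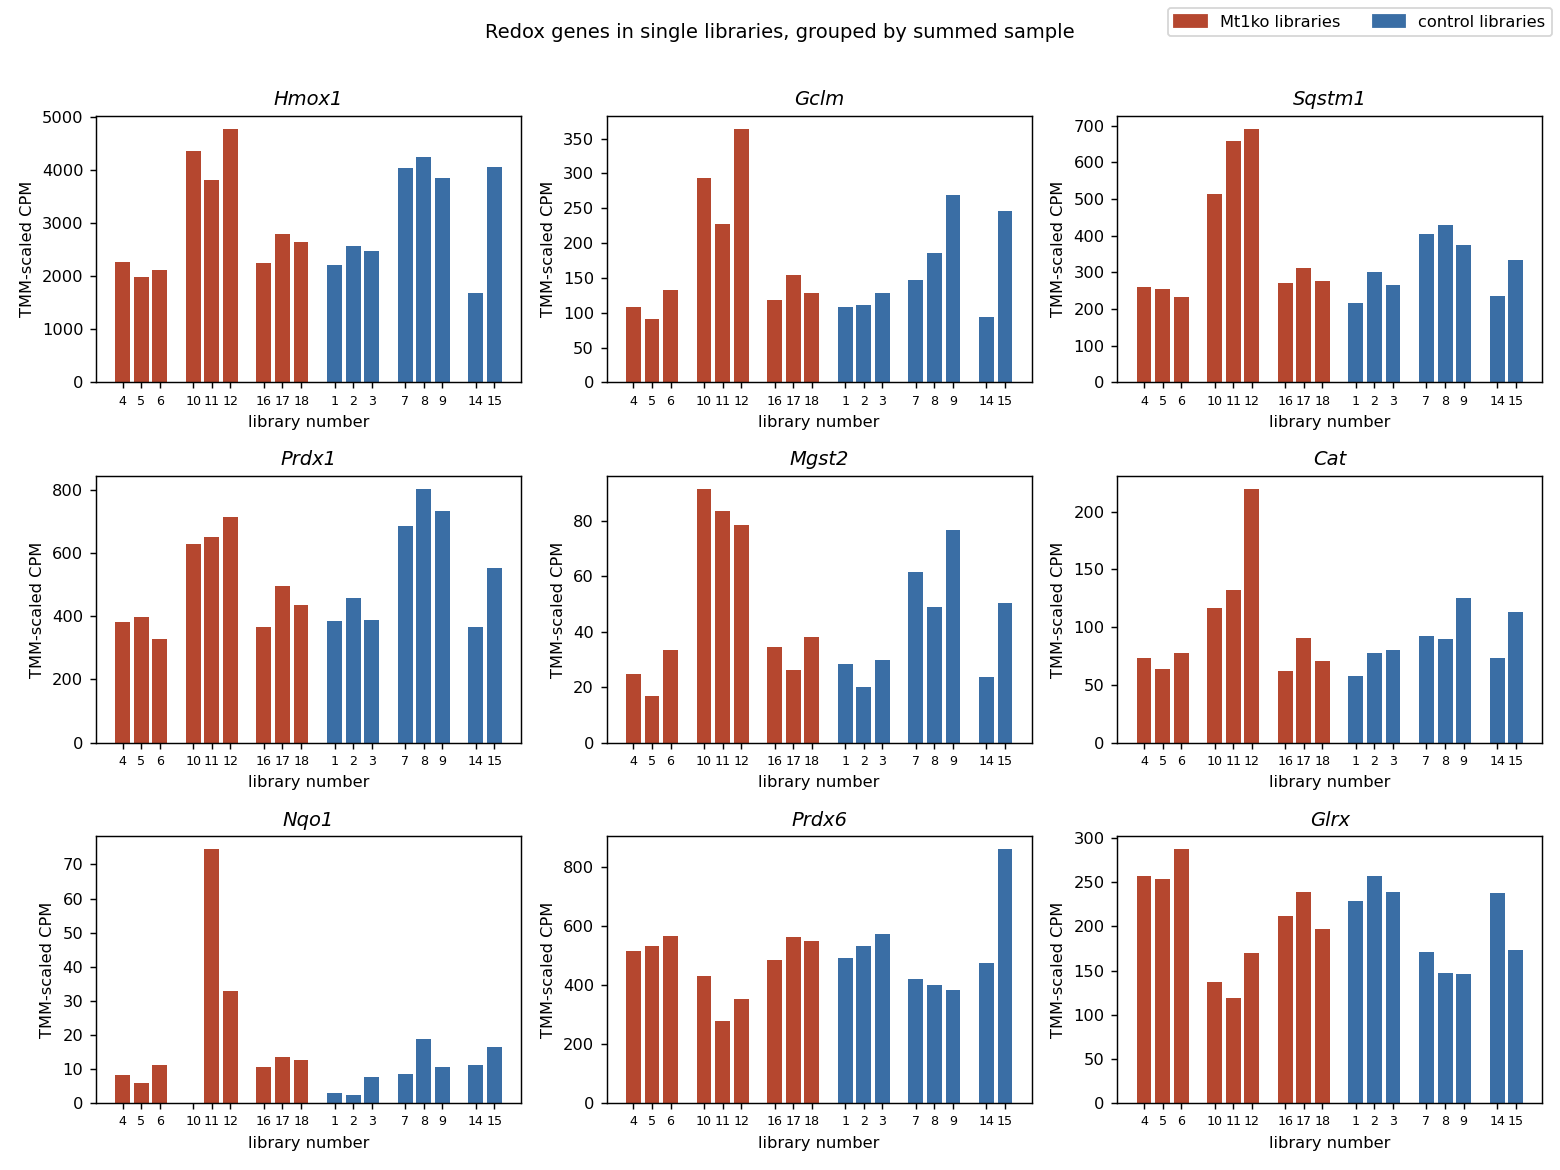
TMM-scaled CPM of 9 redox genes in each of the 17 libraries, with the 9 Mt1ko libraries in red on the left and the 8 control libraries in blue on the right, in blocks by summed sample. Libraries 10-12 and 7-9 are high for Hmox1, Sqstm1, Prdx1 and Mgst2 and low for Glrx, library 15 stands above library 14 for Hmox1, Gclm and Prdx6, and Nqo1 has no count in library 10.

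The spread between libraries of the same sum also differed from sample to sample. Libraries 14 and 15 were summed into 1 control sample, and 26 of the 37 genes were higher in library 15, with a median log2 difference of 0.33, where the 4955 well expressed genes had a median of -0.07. Hmox1 held 4054 CPM in library 15 and 1680 CPM in library 14, Gclm held 246 CPM in library 15 and 93.5 CPM in library 14, and Prdx6 held 862 CPM in library 15 and 475 CPM in library 14. Of the 30 well expressed genes in the set, 3 (10.0%) were over 1 log2 unit higher in library 15, against 1.13% of all such genes. The mast cell markers summed to 1390 CPM in library 15 and 6.97 CPM in library 14, and the neutrophil markers to 1645 CPM in library 15 and 2710 CPM in library 14; their part in the difference was not tested. The median absolute log2 difference between these libraries was 0.45 over the set and 0.22 over the well expressed genes, as the plot of library pairs shows.

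**Figure D4:**
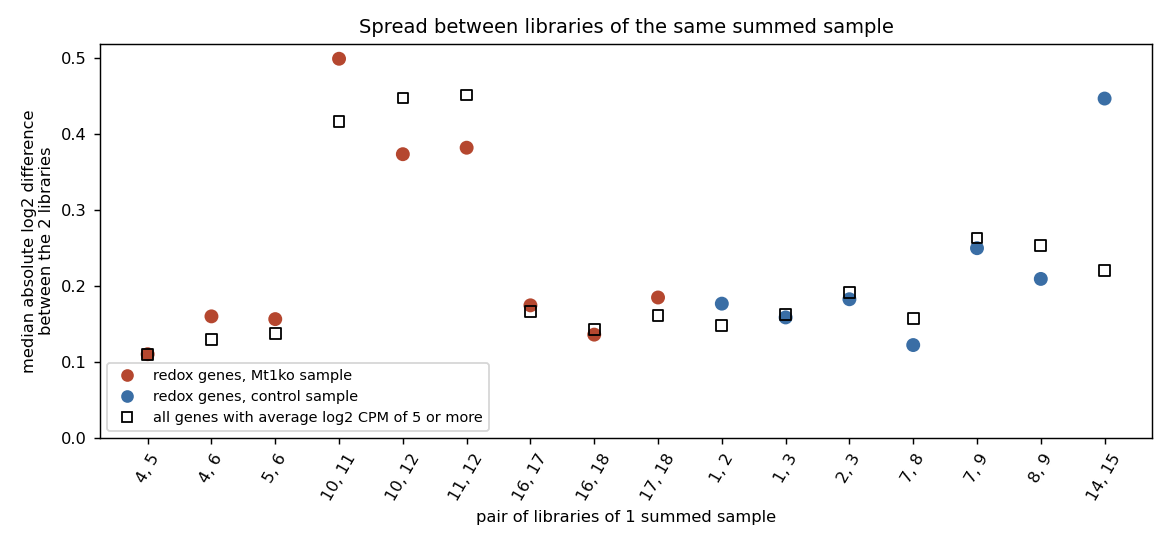
Median absolute log2 difference between 2 libraries of the same summed sample, for each of the 16 pairs. Filled circles are the tested redox genes (red, Mt1ko samples; blue, control samples) and open squares are all well expressed genes (log2 CPM averaging at least 5). In the pair of libraries 14 and 15 the redox genes lie at 0.45 and all genes at 0.22, and the 3 pairs among libraries 10 to 12 are high for both.

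The libraries carried 3 different second index sequences, which the labels include in the library names. Among libraries with the first of them (3 Mt1ko and 5 control), the median log2 difference over the set was -0.02, with 18 of 37 genes higher in Mt1ko. Among those with the second (4 Mt1ko, libraries 10 to 12 included, and 3 control), it was 0.17, with 25 of 37 higher, where all genes had a median of -0.14. The third was carried by 2 Mt1ko libraries alone, so no comparison within it could be made.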

How the data were processed

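Total RNA from bone marrow was made into libraries with a stranded low-input total RNA kit, per the labels' protocols. The submitters' processing notes name Trimmomatic 0.35, RSEM 1.3.3 and the build GRCm38 (mm10); for the aligner and the strand setting nothing is stated (not given in the sources used here). Deposited by the authors were raw gene counts in whole numbers for 17 libraries and for 6 sums, each of which equalled the sum of its libraries in every gene. Groups came from the sample titles; library 13 was not analysed here.

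For the 6 sums, edgeR 4.0.16 under R 4.3.3 gave the test (filterByExpr, TMM, quasi-likelihood F test, group alone, Benjamini-Hochberg over all tested genes, threshold 0.05), after a check on simulated data. Each standard error is the fold change on the log2 scale over the square root of F. Library CPM were TMM-scaled over the 17 libraries. Intervals cover the spread between these samples. Coordinates and exon lengths came from GENCODE vM21, which matched 55227 of 56305 identifiers, and promoters from RefSeq.

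The members and lists were chosen with earlier results of these data known. Genes given in every sample were those whose groups did not overlap, the largest fold change and highest level per kilobase in each role, and those with a 3-fold range; among other redox genes, the 2 largest changes per list at an average log2 CPM of at least 3. Gclm and Glrx by sample, Prdx6 by library, Me3, Chil3, Mmp8 and Mpo were chosen after their values were seen. As alternatives, scaling was by RLE or upper quartile, the filter was dropped or made stricter, and the unit or test was changed to 17 libraries (alone, with the second index, with the sum as random effect), DESeq2 1.42.0, limma-voom (limma 3.58.1), leaving out each sum, library 6, libraries 6 and 10 to 12, or mitochondrial genes, and, chosen after seeing the data, library 14 or library 15.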

Additional observations from a re-analysis of the deposited data

Results flagged for a closer look

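In each gene the highest and lowest libraries of a group were set against the other libraries of the group. Of 74 groups examined (37 genes in 9 Mt1ko and 8 control libraries), 9 had a library far from the rest. Chance would flag about 1 in 20 if libraries and genes were independent. These libraries are technical replicates within 3 sums a group, so that rate is not a baseline here. Of the 9 flagged groups, 6 were Mt1ko and 3 were control groups, and all 6 Mt1ko ones lay in libraries 10 to 12. Nqo1 stood at 74.55 CPM in library 11, with the next Mt1ko library at 33.0 CPM. In library 12, Txn1 stood at 179 CPM (next, 110.0), Txnrd1 at 486 CPM (next, 371) and Cat at 219.7 CPM (next, 132). In library 10, Prdx3 stood at 38.4 CPM (next, 25.6) and Tkt was the lowest at 215 CPM (next, 313). Among control libraries, Prdx2 stood at 68.4 CPM in library 1 (next, 54.0), and library 15 held Prdx6 at 862 CPM (next, 573) and Me1 at 3.62 CPM (next, 1.31).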

How the results depend on the processing

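The number of genes past the threshold was 0 in the set and 0 among the other redox genes under all 20 alternatives. Over all genes, 1 gene, Mt1, was called with 17 libraries, with the sum as random effect, with DESeq2, with library 6 left out and with libraries 6 and 10 to 12 left out, and 0 otherwise. The median log2 fold change of the set was -0.038 with libraries 6 and 10 to 12 left out and 0.14 with library 15 left out, and ran from -0.030 to 0.14 when each sum was left out. The median of the other redox genes was -0.012 with the second index as a covariate, -0.030 with the sum as random effect, 0.063 with libraries 6 and 10 to 12 left out and 0.00078 with library 14 left out, and ran from -0.046 to 0.060 when each sum was left out. Of 618 values of named genes under an alternative, 59 took the other sign and 554 kept sign and side of the threshold, and 5, all of Mt1, newly passed it. Those that took the other sign were these. With the second index as a covariate, the log2 fold change was -0.0045 for Gpx4, -0.056 for Mgst2 and 0.010 for Txn1. With the sum as random effect, the log2 fold change was -0.037 for Nqo1 and -0.011 for Gpx4. With 17 libraries, the log2 fold change was -0.0087 for Gpx1. With DESeq2, the log2 fold change was 0.0012 for Txn1. With RLE scaling, the log2 fold change was 0.0012 for Txn1. With libraries 6 and 10 to 12 left out, the log2 fold change was -0.20 for Sqstm1, -0.062 for Nqo1, -0.052 for Gpx4, -0.11 for Gstm1, -0.60 for Mgst2, -0.29 for Cat, -0.046 for Taldo1, 0.070 for Fbxw11, -0.68 for Cbr1, 0.060 for Nxn, 0.011 for Txnl1 and 0.047 for Mthfd2. With library 14 left out, the log2 fold change was -0.0028 for Gsr. With library 15 left out, the log2 fold change was 0.14 for Hmox1, -0.0033 for Gpx1, -0.027 for Gpx4, 0.050 for Txn1 and 0.57 for Me1. With library 6 left out, the log2 fold change was -0.0074 for Gsr. With upper quartile scaling, the log2 fold change was -0.0083 for Gsr, -0.014 for Gpx1 and -0.0045 for Gpx4. When each sum was left out, the log2 fold change ran from -0.22 to 0.52 for Sqstm1, from -0.058 to 0.087 for Gpx4, from -0.13 to 0.21 for Gstm1, from -0.48 to 0.62 for Mgst2, from -0.25 to 0.37 for Cat, from -0.069 to 0.25 for Taldo1, from -0.36 to 0.054 for Fbxw11 and from -0.79 to 1.38 for Cbr1. It ran from -0.84 to 0.079 for Ggt5, from -0.66 to 0.0049 for Nxn, from -0.94 to 0.16 for Mthfd2, from -0.38 to 0.20 for Hmox1, from -0.055 to 0.049 for Txn1, from -0.12 to 0.13 for Gsr, from -0.081 to 0.14 for Gpx1, from -0.39 to 0.19 for Prdx1 and from -0.81 to 0.24 for Me1. The cause of these changes was not tested. With 3 sums a group, the 95% interval reached beyond 1 log2 unit from 0 in 8 of the 37 genes, so a change of that size was not excluded there.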
